A study of Mus musculus with 54 samples.

Results

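The comparison of 5 P28 libraries labelled RnaseH2B,Atm Nes-cre (Rnaseh2b_Atm) with 5 P28 libraries labelled Atm Nes-cre (Atm) asked what loss of Rnaseh2b changes in the mouse cerebellum when Atm is also targeted. The libraries were chosen by genotype and age alone and make up 10 of the 54 samples of the series. Both groups carry the Atm allele and Nes-cre, so they differ in the labels only by Rnaseh2b. All 10 were made from poly-A RNA of whole cerebellum at postnatal day 28. The other P28 groups, 5 Control and 5 RnaseH2B Nes-cre (Rnaseh2b) libraries, were fitted together with them, and 3 Atm and 4 Rnaseh2b_Atm libraries from postnatal day 5 (P5) hold the same comparison at an earlier age. Nes-cre expresses the Cre recombinase from nestin sequences, active in neural progenitors. Neurons, astrocytes and oligodendrocytes descend from the targeted cells, whereas microglia, vessels and meninges arise mostly from other lineages. Which cells had lost either gene was not measured. The labels give no alleles, sex or strain, nor whether each replicate is an animal of its own, and p-values therefore cover the spread among these libraries and nothing wider.

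Rnaseh2b encodes a subunit of RNase H2, the enzyme that cuts RNA from RNA:DNA hybrids and removes single ribonucleotides built into DNA. Without it, ribonucleotides stay in the genome, breaks form, and p53 can be activated. In people, mutations of RNase H2 genes cause Aicardi-Goutieres syndrome, a brain disease with raised interferon signalling, and mutations of ATM, a kinase that answers DNA breaks, cause ataxia-telangiectasia, in which the cerebellum degenerates. The cerebellar cortex is made mostly of granule neurons, which excite Purkinje cells. Purkinje cells inhibit the neurons of the cerebellar nuclei, the output of the organ.

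Recovered read totals in genes ran from 27.4 to 67.1 M (median 31.6 M) in the Atm libraries and from 39.8 to 89.7 M (median 63.6 M) in the Rnaseh2b_Atm libraries. No 2 libraries of a P28 group were copies, as chi-square per degree of freedom was 9.64 or more for every pair. Xist lay above Ddx3y, as in females, in 1 of 5 Atm and 3 of 5 Rnaseh2b_Atm libraries. The main axis of variation among the 20 P28 libraries held 52% of the variance and set the 5 Rnaseh2b_Atm libraries apart from the other 15. Atm 4 and Rnaseh2b_Atm 2 stood away from their groups on the next axis, and counts are given without them where that changes a statement.

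Rnaseh2b was lower in every Rnaseh2b_Atm library. The deposited log2 CPM values (reads per gene scaled to library size, on the log2 scale) were 2.08, 2.77, 2.59, 2.59 and 2.87 in Atm libraries 1 to 5, and 0.95, 0.60, 1.18, 0.71 and 1.06 in Rnaseh2b_Atm libraries 1 to 5. The groups did not overlap, and Rnaseh2b fell by 1.68 ± 0.14 on the log2 scale (limma, adjusted p = 5.5e-09; here and below ± is the standard error of the fit), to 31.2% of the level in Atm. The control libraries stood at 2.84 ± 0.09 (SD, n = 5). Atm was measured at 4.68, 4.85, 4.97, 4.60 and 4.84 log2 CPM across Atm libraries 1 to 5, about the level of control (4.83 ± 0.06, SD, n = 5), and at 3.97, 4.09, 4.10, 4.08 and 4.03 in Rnaseh2b_Atm. Those groups did not overlap either, and Atm fell by 0.73 ± 0.065 on the log2 scale (limma, adjusted p = 1.4e-08). The Atm transcript thus did not separate the libraries labelled Atm from control, and their genotype rests on the labels alone. A deletion that leaves most of the transcript in place would not be seen in a count per gene. Whether this allele is of that kind, and why Atm fell in Rnaseh2b_Atm, was not tested.

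The cerebellar transcriptome differed widely between the groups. Of 16530 genes tested, 4952 rose and 5130 fell in Rnaseh2b_Atm against the libraries labelled Atm, where rose and fell mean a limma adjusted p below 0.05. The shares called were 30.0% higher and 31.0% lower, 61.0% in all, and the 5 and 5 libraries did not overlap for 41.7% of genes (21.5% higher, 20.2% lower). A list of genes must be read against those shares. Genes were tested if at least 5 P28 libraries had at least 1 CPM. The 5 Rnaseh2b_Atm libraries alone could thus bring a gene in, while a gene low in every group was left out. Counts and medians of lists with low genes can therefore favour the members that changed. Changes of 2-fold or more were fewer, with 1397 genes higher (8.45%) and 664 lower (4.02%). The median change over all genes was −0.03 log2.

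Genes that mark other brain regions moved with the genotype, and these values stand beside every neuronal result below. A midbrain list had 17 genes, of which 12 were tested. Its mean level lay 2.55 to 3.12 log2 above the Atm mean in all 5 Rnaseh2b_Atm libraries, while the Atm libraries themselves ran from −0.75 to 0.59. Of its members 8 rose and 2 fell, with a median of 2.17 log2. Pax7, a transcription factor of the dorsal midbrain, was at −3.80, −6.79, −3.07, −4.14 and −4.21 log2 CPM in Atm and at 3.73, 3.33, 4.31, 2.54 and 3.75 in Rnaseh2b_Atm. It was far lower in every Atm library than in any Rnaseh2b_Atm library, and rose by 7.93 ± 1.1 log2. All its Atm values lay below 1 CPM, so that it was tested may rest on the Rnaseh2b_Atm libraries. Gata3 (7.10 ± 1.0), Pou4f1 (5.28 ± 0.69) and Tcf7l2 (3.30 ± 0.55), transcription factors of midbrain or diencephalic neurons, also rose without overlap. The members that fell were the transcription factors Nr4a2 (−2.61 ± 0.45) and Barhl2 (−1.99 ± 0.11). A list for medulla and pons could not be used, as 1 of its 20 genes had a row and none was tested. The part of neighbouring tissue in the dissections was not tested. With the level of the midbrain list as a covariate, a setting added after seeing the data, 3191 genes rose and 3018 fell. The groups do not overlap in that level, so the covariate and the genotype overlap in this fit, and a call lost under it cannot be told apart from lost power. Where a list below has no count under this covariate, its calls are not thereby shown to hold under it. The covariate was the mean of 8 members and left out Th, Ddc, Slc18a2 and Nr4a2. Pax7, Gata3, Pou4f1, Tcf7l2 and Otx2 were among the 8, and their own values under it therefore show nothing. Otx2 is also a member of the choroid plexus list.

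Th, tyrosine hydroxylase, makes the precursor of dopamine and noradrenaline. Its level was 1.46, 1.17, 1.44, 1.01 and 1.37 log2 CPM in Atm and 8.73, 8.98, 8.99, 9.20 and 9.07 in Rnaseh2b_Atm. Both sets were narrow and far apart, and the rise was 7.70 ± 0.23 log2, or 209-fold (limma, adjusted p = 1.5e-14). The partners of Th in dopamine neurons, named here after their values were seen, moved far less: Ddc, which makes dopamine from its precursor, changed by 0.36 ± 0.18 log2 and was not called, and Slc18a2, which loads it into vesicles, rose by 0.57 ± 0.18. Tac1, the substance P precursor, was at 0.60, −2.50, 0.33, −1.55 and −2.19 in Atm and at 4.51, 4.23, 4.82, 4.01 and 4.49 in Rnaseh2b_Atm. Atm 1 and 3 were the highest of their group for Tac1, and also for Cbln2, Cpne5, Lhx9 and Gda. Cbln2 (5.53 ± 1.0), a synapse organizer, Tac1 (5.47 ± 0.66), Cdhr1 (4.86 ± 0.65), a cadherin, Fibcd1 (4.81 ± 0.56), Cpne5 (4.77 ± 0.78), Htr1a, a serotonin receptor (4.70 ± 0.62), Col25a1, a neuronal collagen (4.58 ± 0.46), Gda (4.48 ± 0.59), Lhx9 (4.44 ± 0.81) and Slit1, an axon guidance ligand (4.32 ± 0.49), were, with Ube2c (described below), the other rises named as the largest without overlap among genes that averaged 1 log2 CPM or more over the 10 libraries. With the midbrain covariate Th, Fibcd1, Col25a1 and Slit1 were still called, while Tac1, Cdhr1, Htr1a and Gda were not, and the values of Cbln2 (−0.80), Cpne5 (−0.38) and Lhx9 (−0.70) turned negative. Ddc was called without Atm 4 (0.45) or without Rnaseh2b_Atm 4 (0.52).

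Falls are named here by size under the same limits. Sla, an adaptor that dampens receptor signalling in lymphocytes, was at 5.58, 5.55, 5.60, 5.72 and 5.53 log2 CPM in Atm and at 2.03, 1.88, 2.27, 1.72 and 1.96 in Rnaseh2b_Atm. Within each group the values lay close together, and Sla fell by 3.63 ± 0.087 on the log2 scale, to 8.1% of the level in Atm (limma, adjusted p = 4.5e-16). Car4, a membrane carbonic anhydrase, went from 7.98 ± 0.06 to 4.63 ± 0.35 log2 CPM (SD, n = 5 and 5). Further falls without overlap were those of Ldoc1 (−3.54 ± 0.21), Hkdc1, a hexokinase-like enzyme (−3.24 ± 0.12), Prom2 (−2.92 ± 0.17), Svep1 (−2.84 ± 0.091), Car9, another carbonic anhydrase (−2.81 ± 0.14), Emilin3 (−2.71 ± 0.30), Calb2 (−2.69 ± 0.10), Adamts18, a matrix protease (−2.65 ± 0.19) and Chi3l7 (−2.63 ± 0.26).

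**Figure D1:**
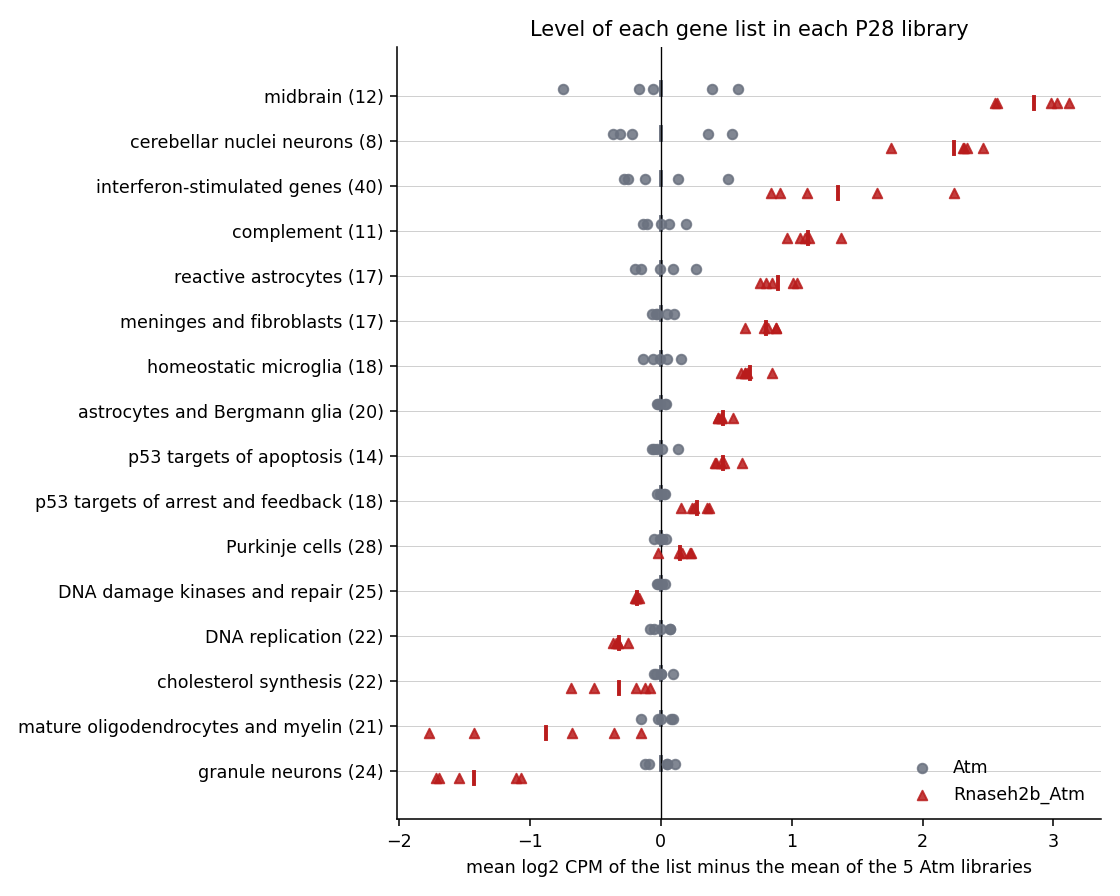
Each point is 1 library: the mean log2 CPM over the tested members of a list (number in brackets) minus the mean of the 5 Atm libraries, with the group mean as a vertical bar. Granule neuron genes are lower in all 5 Rnaseh2b_Atm libraries, by 1.07 to 1.72, and interferon-stimulated, complement, microglial and midbrain lists are higher in all 5.

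**Figure D2:**
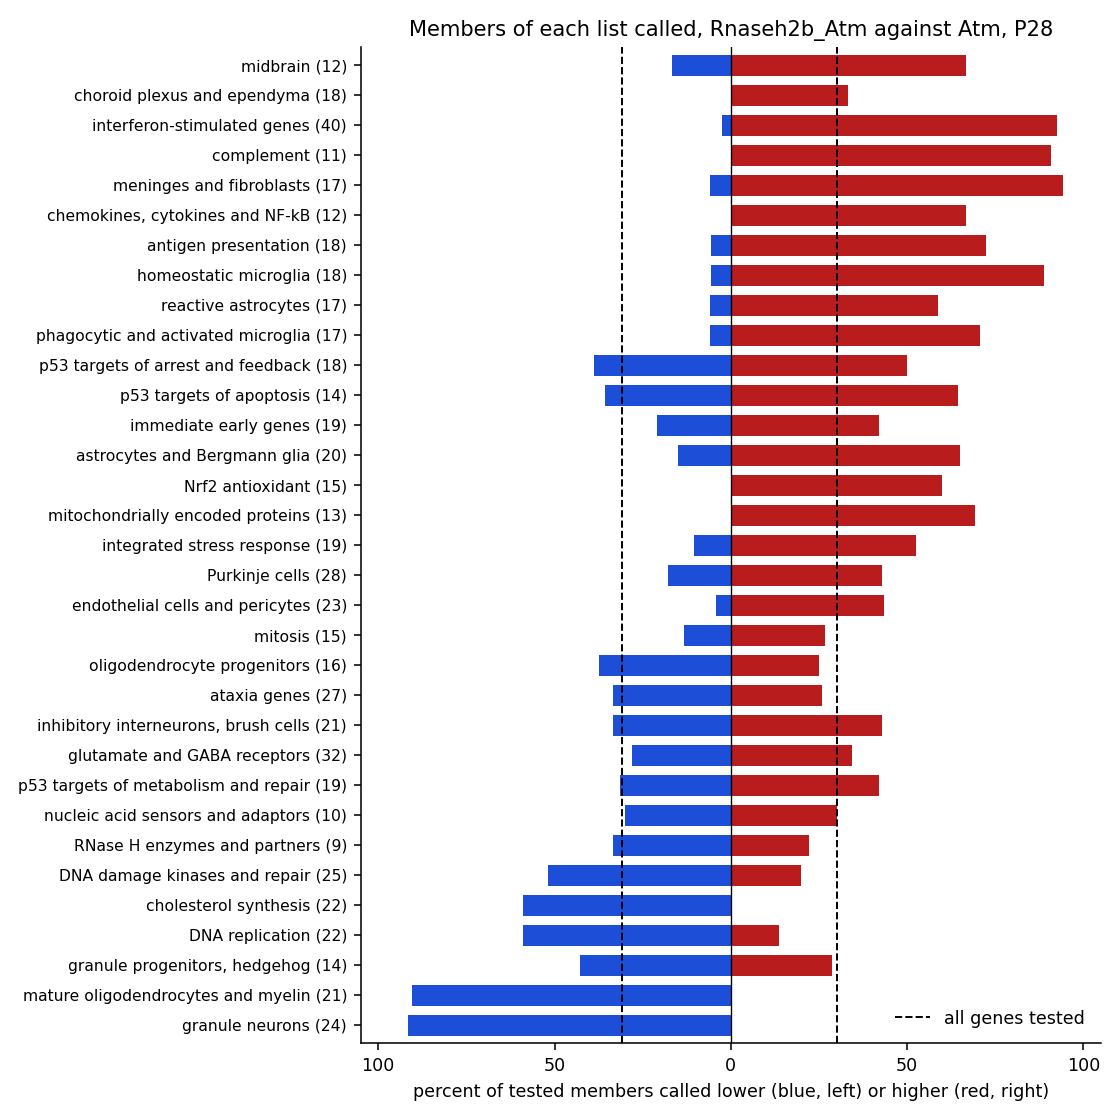
Bars give the percent of tested members of each list called higher (right) or lower (left), and the dashed lines the shares over all genes tested, 30.0% and 31.0%. Granule neuron and myelin lists lie almost wholly on the lower side, and interferon-stimulated, complement, microglial and meningeal lists almost wholly on the higher side.

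Granule neurons. Of 24 genes of granule neurons, 22 fell and the other 2 were not called, with a median of −1.54 log2. The list lay 1.07 to 1.72 below the Atm mean in every Rnaseh2b_Atm library, furthest in libraries 3 and 5, and Rnaseh2b_Atm 2 and 4 were the least affected. Calb2, the calcium buffer calretinin, was at 8.67, 8.72, 8.69, 8.77 and 8.80 log2 CPM in Atm and at 6.20, 5.95, 6.27, 5.65 and 6.14 in Rnaseh2b_Atm. The gap between the groups was many times the spread within either, and Calb2 fell to 15.5% of the level in Atm (limma, adjusted p = 1.4e-13). Cbln3, a cerebellin secreted at the synapses of granule cells, was at 10.65, 10.89, 10.68, 10.76 and 10.72 in Atm and at 8.76, 9.58, 8.56, 9.53 and 8.52 in Rnaseh2b_Atm. Among the latter, libraries 2 and 4 kept the most Cbln3, and its fall was 1.75 ± 0.17 on the log2 scale. Grin2c (−2.56 ± 0.15), the NMDA receptor subunit of mature granule cells, and Gabrd (−1.94 ± 0.15), the subunit behind their tonic inhibition, fell too. So did Fat2 (−1.97 ± 0.22), a giant cadherin of granule cell axons, Chn2 (−1.91 ± 0.13), a Rac regulator, Zic1 (−1.53 ± 0.15), a transcription factor, and Reln (−1.37 ± 0.085), the secreted guidance protein reelin. The members that were not called were Barhl1 and Vsnl1, at −0.34 and 0.13 log2, named to complete the count. Without Atm 4 both were called, at −0.55 and 0.20. In bulk tissue, fewer cells of a type and less RNA per cell cannot be told apart, here and in every list below. With the midbrain list as a covariate 18 of the 24 fell, with a median of −1.15.

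Precursors of granule neurons divide under hedgehog signalling, and by P28 this has ended in a normal cerebellum. Of 14 tested genes of progenitors and hedgehog signalling 4 rose and 6 fell, shares near those of all genes. The hedgehog targets Gli1 (−0.89 ± 0.083) and Ptch1 (−0.53 ± 0.083) fell, as did the co-receptor Boc (−0.93 ± 0.11). Cntn2, an adhesion protein of growing axons, fell by 1.45 ± 0.049 on the log2 scale, and Ccnd2, a cyclin, rose by 1.47 ± 0.16. Rassf4 rose by 1.74 ± 0.15, and the other rises, named to complete the count, were Gli2 (0.57) and Mfap4 (0.62).

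Purkinje cells. Purkinje genes had no common direction. Of 28 members 12 rose, 5 fell and 11 were not called, with a median of 0.21 log2, and with the midbrain covariate 13 rose and 3 fell. Car8, which tunes the calcium channel of the Purkinje endoplasmic reticulum, was at 10.49, 10.59, 10.19, 10.36 and 10.20 log2 CPM in Atm and at 10.40, 10.70, 10.03, 10.48 and 10.50 in Rnaseh2b_Atm. The groups overlapped along most of their range, and the difference was 0.06 ± 0.10 (limma, adjusted p = 0.65). Itpr1, that channel, rose by 0.27 ± 0.078, and Rgs8, a brake on G protein signalling, by 0.46 ± 0.078. Larger rises were those of Foxp2 (2.04 ± 0.18), a transcription factor also found in other brain regions, Shh (1.11 ± 0.099), the signal Purkinje cells send to granule precursors, and Nefh (1.08 ± 0.077), the heavy neurofilament of large axons. The falls were En2 (−1.69 ± 0.18), a cerebellar patterning factor that granule cells also express, Kcnma1 (−0.61 ± 0.10), Pvalb (−0.36 ± 0.072) and, named to complete the count, Gng13 (−0.74) and Prkg1 (−0.45). All these values are relative to the reads of the whole library.

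Inhibitory interneurons and unipolar brush cells. Their 21 genes did not move as 1 group: 9 rose, 7 fell and 5 were not called, and with the midbrain covariate 5 rose and 6 fell. Kit, the receptor that marks molecular layer interneurons, was at 7.96, 8.12, 7.99, 8.13 and 7.94 log2 CPM in Atm and at 5.93, 6.04, 6.02, 5.85 and 5.98 in Rnaseh2b_Atm. The values were close together within each group, and Kit fell to 23.9% of the level in Atm (limma, adjusted p = 7.2e-16). Nos1, the neuronal nitric oxide synthase of basket, stellate and granule cells, fell by 1.60 ± 0.14 on the log2 scale. The enzymes that make GABA went the other way. Gad2 was at 6.97, 7.07, 6.84, 7.20 and 6.83 in Atm and at 8.51, 8.63, 8.72, 8.25 and 8.55 in Rnaseh2b_Atm, a rise of 1.55 ± 0.096. Gad1 rose by 0.51 ± 0.044 and Lgi2, a secreted synaptic protein, by 1.44 ± 0.067. Gad1 and Gad2 are made by inhibitory neurons of every brain region, and their rise stands beside the midbrain values above.

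Cerebellar nuclei. All 8 tested genes of the list rose, with a median of 1.62 log2. Slc17a6, the vesicular glutamate transporter of nuclear, midbrain and brainstem neurons, was at 4.95, 3.94, 4.36, 4.58 and 3.41 log2 CPM in Atm and at 7.64, 7.16, 7.87, 7.40 and 7.85 in Rnaseh2b_Atm. Every Rnaseh2b_Atm library lay above all Atm libraries, and Slc17a6 rose by 3.34 ± 0.33 log2, or 10.1-fold (limma, adjusted p = 5.0e-08). Meis2, a transcription factor, rose by 3.80 ± 0.49, and the neurofilament genes Nefl and Nefm by 1.23 ± 0.18 and 1.20 ± 0.21. Rnaseh2b_Atm 2 had the lowest Nefl and Nefm of its group, at 8.07 and 8.43. None of these genes is confined to the nuclei, and with the midbrain covariate 3 of the 8 rose, Slc17a6 among them and Meis2, Nefl and Nefm not.

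**Figure D3:**
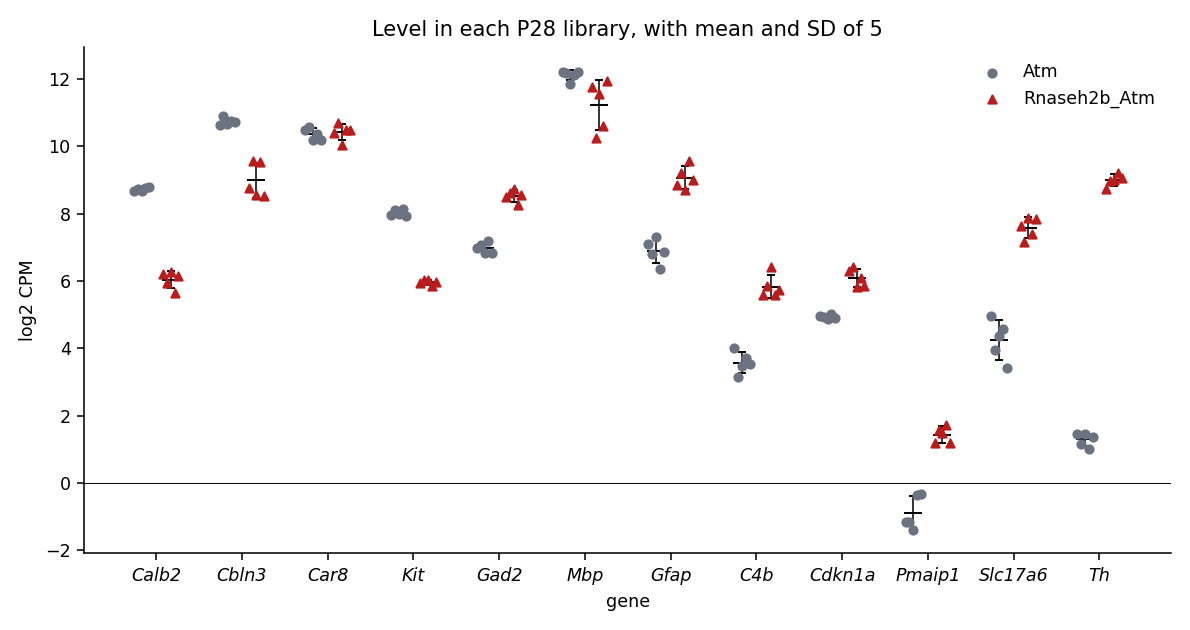
Points are the log2 CPM of 12 genes in each of the 5 Atm (circles) and 5 Rnaseh2b_Atm (triangles) libraries, and bars the mean and SD. Calb2, Cbln3 and Kit lie lower in Rnaseh2b_Atm without overlap, Car8 overlaps, Mbp is low in Rnaseh2b_Atm 2 and 4, and Gad2, Gfap, C4b, Cdkn1a, Pmaip1, Slc17a6 and Th lie higher.

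Oligodendrocytes. Myelin genes fell, but unevenly between libraries. Of 21 tested genes 19 fell and the other 2 were not called, with a median of −0.89 log2. The libraries overlapped for 15 of the 19, and 4 of the 21 lay lower without overlap, about the 20.2% of all genes. Mbp, myelin basic protein, was at 12.20, 12.17, 11.87, 12.13 and 12.22 log2 CPM in Atm and at 11.77, 10.24, 11.55, 10.62 and 11.93 in Rnaseh2b_Atm. Rnaseh2b_Atm 2 and 4 were far below the rest, and Rnaseh2b_Atm 5 reached the range of Atm. The list as a whole lay 1.77 and 1.43 log2 below the Atm mean in Rnaseh2b_Atm 2 and 4, and 0.36, 0.68 and 0.15 below it in libraries 1, 3 and 5. Without libraries 2 and 4, a setting added after seeing the data, 14 of the 21 genes fell, 1 rose and the median was −0.46. Mbp (−0.89 ± 0.23) and Mobp (−0.79 ± 0.23), structural proteins of myelin, were among the members with the highest means. The smallest p-values included those of the connexin Gjb1 (−1.43 ± 0.25), the enzymes Aspa (−0.86 ± 0.17) and Fa2h (−1.26 ± 0.25), and the cytoskeletal protein Ermn (−1.05 ± 0.24). With the midbrain covariate 10 of the 21 fell, Mbp, Mobp and Ermn not among them.

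Of 16 genes of oligodendrocyte progenitors 4 rose and 6 fell, shares near those of all genes, and with the midbrain covariate 1 rose and 4 fell. Pdgfra, the growth factor receptor of early progenitors, rose by 0.75 ± 0.083 log2, and Cspg4 (NG2) by 0.56 ± 0.13, while Enpp6, made by cells that are starting to myelinate, fell by 1.54 ± 0.19 on the log2 scale. Pdgfra is also a gene of fibroblasts and Cspg4 of pericytes. Bcas1, of early myelinating cells, fell by 0.70 ± 0.19, and the matrix proteins Tnr and Vcan by 0.98 ± 0.13 and 0.56 ± 0.081. Gpr17 (0.10 ± 0.18) and Ptprz1 (−0.06 ± 0.064) were not called. Enzymes of cholesterol synthesis, which myelinating cells need in quantity, also fell, 13 of 22 with a median of −0.32 and the other 9 not called. Examples were Ebp (−0.77 ± 0.06), Tm7sf2 (−0.46 ± 0.053), Lss (−0.44 ± 0.077) and Sc5d (−0.43 ± 0.083). Without Rnaseh2b_Atm 2 and 4, 8 of the 22 fell and 1 rose, and with the midbrain covariate 4 fell.

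p53 targets. Genes that p53 is known to induce changed in both directions. Of 14 apoptosis targets 9 rose and 5 fell, with a median of 0.42 log2, and with the midbrain covariate 4 rose and 1 fell. Pmaip1 (Noxa), which frees the executioners of mitochondrial apoptosis, was at −1.15, −1.17, −1.41, −0.35 and −0.34 log2 CPM in Atm and at 1.19, 1.58, 1.49, 1.73 and 1.18 in Rnaseh2b_Atm. The groups did not overlap, and Pmaip1 rose by 2.32 ± 0.20 log2, or 4.99-fold (limma, adjusted p = 1.3e-08). All its Atm values lay below 1 CPM. Eda2r, a death receptor, rose by 2.72 ± 0.27, Tnfrsf1b, a TNF receptor, by 1.03 ± 0.15, and Trp53inp1, which enhances p53, by 0.57 ± 0.085. Bax, which permeabilizes mitochondria, fell by 0.57 ± 0.086 on the log2 scale, and Ei24 by 0.14 ± 0.054. The other falls, named to complete the count and all with overlapping libraries, were those of Bbc3 (−1.04), Tnfrsf10b (−0.49) and Lrdd (−0.49). The call of Ei24 was lost without Atm 1, 4 or 5 or Rnaseh2b_Atm 3 or 5 (−0.14 to −0.11), and that of Tnfrsf10b without Atm 3, 4 or 5 (−0.44 to −0.39), so 3 of the 14 fell without Atm 4 or without Atm 5.

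Among 18 tested targets of cell cycle arrest and feedback 9 rose and 7 fell, also with a median of 0.42. Cdkn1a (p21), the cell cycle inhibitor, was at 4.97, 4.93, 4.88, 5.03 and 4.89 log2 CPM in Atm and at 6.31, 6.41, 5.82, 6.09 and 5.86 in Rnaseh2b_Atm. All 5 values were above those of Atm, and the rise was 1.16 ± 0.14 log2 (limma, adjusted p = 1.1e-06). Psrc1 (2.27 ± 0.27), a spindle protein, Pvt1 (1.15 ± 0.12), a non-coding RNA, the stress sensor Sesn2 (0.77 ± 0.08) and the RNA-binding Zmat3 (0.53 ± 0.08) rose as well. The brakes on p53 did not: Ppm1d, the phosphatase that switches off ATM and p53, fell by 1.25 ± 0.097 on the log2 scale, and Mdm2, the ligase that degrades p53, fell by 0.17 ± 0.059 with overlapping libraries, a call lost without Atm 5 (−0.15). Sesn1 fell by 0.48 ± 0.07. Of 19 targets of metabolism and repair 8 rose and 6 fell with a median of −0.02, among them Ddit4l (1.07 ± 0.15) and Abhd4 (0.56 ± 0.058) higher and Fdxr (−0.56 ± 0.079), Cpt1c (−0.52 ± 0.083) and Ddb2 (−0.39 ± 0.057) lower. With the midbrain covariate 7 of the 18 arrest and feedback targets rose and 2 fell, and 3 of the 19 targets of metabolism and repair rose and 4 fell.

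Of 25 kinases and repair genes of the DNA damage response 5 rose and 13 fell, with a median of −0.30, and with the midbrain covariate 3 rose and 6 fell. Mdc1, which gathers repair proteins at breaks, was at 5.75, 5.80, 5.73, 5.97 and 5.72 log2 CPM in Atm and at 4.89, 5.16, 4.95, 4.96 and 5.0 in Rnaseh2b_Atm, without overlap (−0.80 ± 0.076). Lig3, a ligase of single-strand break repair (−0.61 ± 0.045), Atrx, a chromatin remodeller (−0.64 ± 0.087), Prkdc, the kinase of end joining (−0.44 ± 0.058), and Parp1, the sensor of nicks (−0.32 ± 0.039), fell too. Of the other RNase H2 subunits, Rnaseh2a, the catalytic one, rose by 0.37 ± 0.043 log2, and Rnaseh2c fell by 0.74 ± 0.23 with overlapping libraries. Fen1, which trims RNA and flaps in DNA, fell by 0.20 ± 0.069, a call lost without Atm 5 (−0.14), and Adar, an RNA editor that is another Aicardi-Goutieres gene, rose by 0.17 ± 0.054.

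Interferon-stimulated genes. Interferons bind receptors that activate a complex with STAT2 and IRF9, which binds a repeated GAAA element in the promoters of its targets. Of 44 listed targets 40 were tested, and 37 rose, 1 fell and 2 were not called, with a median of 1.34 log2. Promoter sequences from RefSeq (GRCm38.p6, a later build than the mm9 of the files, 250 bases before to 50 after each gene start) were found for 31 of the 44. The motif of GAAA, any 2 bases and GAAA, on either strand, was in the promoters of 19 of the 31 (61.3%), against 3.99% of the 27025 genes in the table. A gene with several starts counted once, and matches may overlap. Of the tested members with a promoter, 17 of 18 with the motif rose (median 1.43 log2), as did 10 of 11 without it (median 1.26). The stretches upstream of the gene start that hold the motif are shown for the 5 risen members with the smallest adjusted p that have one there, and for Stat2, the member that fell, with every match in capitals and read 5′ to 3′ on the strand of the gene.
Ifit3 chr19:34583357-34583466 (+ strand): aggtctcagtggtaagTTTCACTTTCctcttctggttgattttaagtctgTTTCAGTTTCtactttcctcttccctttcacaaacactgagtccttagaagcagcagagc
Cxcl10 chr5:92349043-92349139 (- strand): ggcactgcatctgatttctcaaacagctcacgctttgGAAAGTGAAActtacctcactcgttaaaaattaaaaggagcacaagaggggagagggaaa
Rsad2 chr12:26456513-26456622 (- strand): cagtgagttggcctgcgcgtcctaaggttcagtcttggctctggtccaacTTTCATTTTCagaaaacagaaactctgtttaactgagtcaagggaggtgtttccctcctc
Trim30a chr7:104465194-104465279 (- strand): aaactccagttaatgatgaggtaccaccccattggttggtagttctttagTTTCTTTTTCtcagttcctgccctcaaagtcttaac
Irgm1 chr11:48871421-48871494 (- strand): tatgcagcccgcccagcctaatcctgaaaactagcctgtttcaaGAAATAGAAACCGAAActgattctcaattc
Stat2 chr10:128270248-128270335 (+ strand): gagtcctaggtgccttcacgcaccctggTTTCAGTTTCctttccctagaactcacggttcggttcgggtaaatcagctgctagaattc
The values of Ifit3, an antiviral RNA-binding protein, were 3.07, 1.55, 1.64, 1.51 and 1.54 log2 CPM in Atm and 3.69, 4.94, 5.44, 3.65 and 3.73 in Rnaseh2b_Atm. Atm 1 was the highest of its group and Rnaseh2b_Atm 2 and 3 of theirs, and the groups did not overlap. Ifit3 rose by 2.43 ± 0.35 log2, or 5.38-fold (limma, adjusted p = 7.0e-06).

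Cxcl10, the chemokine that draws T cells, followed the same libraries at a lower level, with −0.51, −3.19, −3.07, −2.72 and −2.52 log2 CPM in Atm and 0.36, 2.42, 1.69, 1.14 and 0.48 in Rnaseh2b_Atm. Atm 1 again stood above the other Atm libraries. The rise of Cxcl10 was 3.62 ± 0.55 log2. All its Atm values lay below 1 CPM, so its place among the tested genes may rest on the Rnaseh2b_Atm libraries. Rsad2 (1.96 ± 0.31), the antiviral enzyme viperin, Trim30a (1.54 ± 0.26) and Irgm1, an interferon-induced GTPase (1.46 ± 0.26), rose without overlap. These 5 genes were named for their promoters, after their values were seen. By the smallest p, the leading rises were Ifit2 (2.02 ± 0.22), Lgals3bp (1.79 ± 0.22), Trim25, a ligase of the RIG-I pathway (1.12 ± 0.15), and Ifi27l1 (0.98 ± 0.13).

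Stat2 and Irf9, which carry the signal, did not rise with their targets. Stat2 was at 7.11, 7.24, 7.02, 7.12 and 7.05 log2 CPM in Atm and at 5.58, 6.09, 5.99, 5.87 and 5.63 in Rnaseh2b_Atm, and its promoter holds the motif as shown above. All 5 Rnaseh2b_Atm values lay below all Atm values, and Stat2 fell to 41.3% of the level in Atm (limma, adjusted p = 8.0e-10). Irf9 was not called, at 0.16 ± 0.15. The level of the whole list was 0.84 to 2.24 log2 above the Atm mean, highest in Rnaseh2b_Atm 3, and Atm 1 at 0.51 was the highest of its group. Without Rnaseh2b_Atm 3, 36 members rose and the median was 1.11. With the midbrain covariate 19 rose. Of 10 sensors and adaptors of nucleic acid sensing, upstream of interferon, 3 rose and 3 fell, about the shares of all genes. Tlr7 (1.71 ± 0.22) and Tlr3 (0.63 ± 0.14), endosomal RNA sensors, and Mavs (0.24 ± 0.067), their cytoplasmic counterpart's adaptor, rose. The kinase Tbk1 (−0.20 ± 0.049), Irf3 (−0.37 ± 0.14) and Aim2 (−0.43 ± 0.17), a DNA sensor named to complete the count, fell. Irf3 was not called without Atm 1, 2, 3 or 5 or Rnaseh2b_Atm 2 or 5 (−0.35 to −0.30), and Aim2 not without Atm 2, 4 or 5 or Rnaseh2b_Atm 1, 3, 4 or 5 (−0.43 to −0.33), so that 1 sensor fell without Atm 2, Atm 5 or Rnaseh2b_Atm 5.

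**Figure D4:**
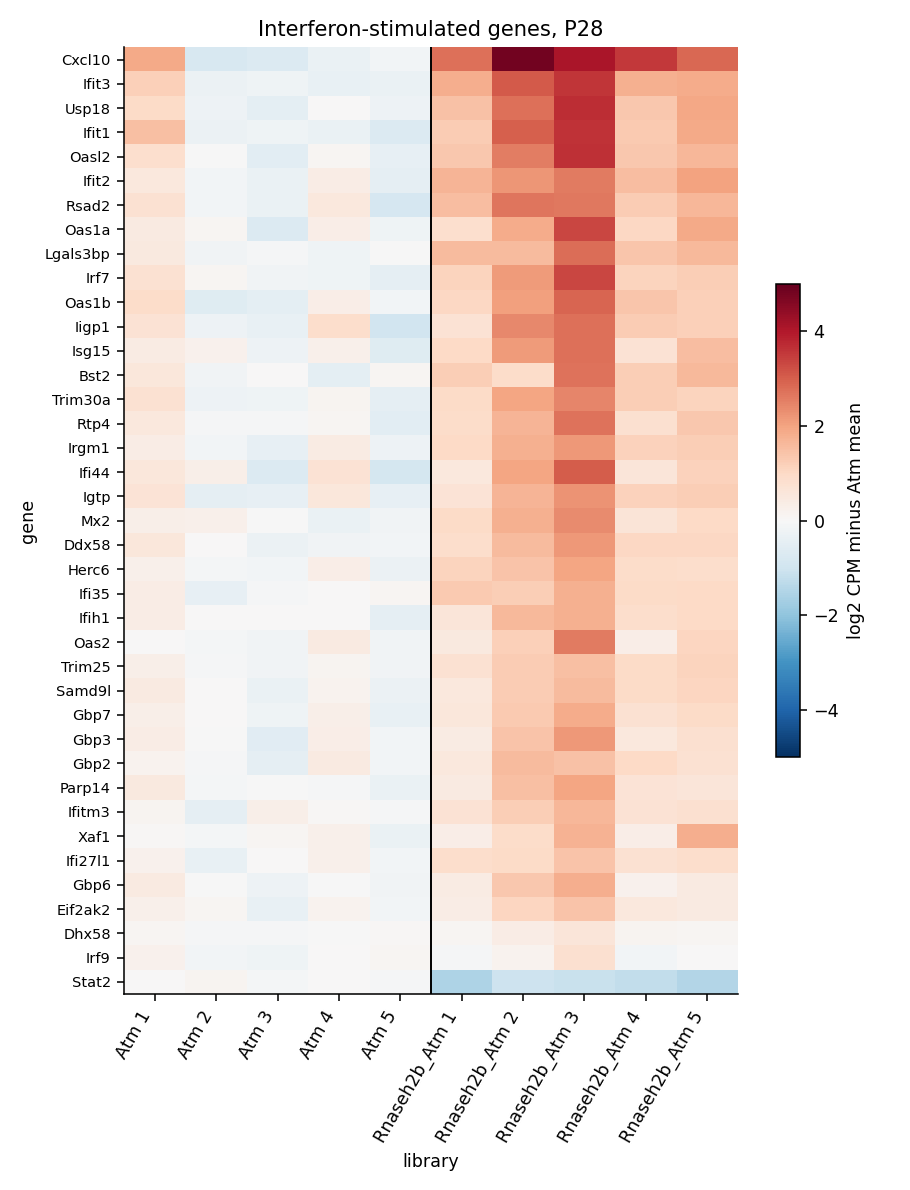
Heat map of 39 interferon-stimulated genes (rows, ordered by change) in the 10 libraries (columns); colour is log2 CPM minus the mean of the 5 Atm libraries. Most rows are red in all 5 Rnaseh2b_Atm libraries, deepest in libraries 2 and 3, Atm 1 is redder than the other Atm libraries, and Stat2 in the lowest row is blue.

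Microglia and complement. Microglia are the brain's resident macrophages. Of 18 homeostatic microglial genes 16 rose and 1 fell, with a median of 0.70 log2, and the list level was 0.61 to 0.85 above the Atm mean in the 5 Rnaseh2b_Atm libraries. With the midbrain covariate 7 of the 18 rose and 1 fell, with a median of 0.42. Olfml3 (1.49 ± 0.14), the protease Ctss (1.11 ± 0.11), Tmem119 (1.06 ± 0.13), the lectin Siglech (0.78 ± 0.11) and Csf1r, the receptor for colony-stimulating factor (0.60 ± 0.087), rose. Itgb5, an integrin, fell by 0.34 ± 0.062 on the log2 scale. Microglia arise outside the neural lineage that Nes-cre targets.

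Of 24 listed genes of activated, phagocytic microglia 17 were tested, and Cst7, Ccl3 and Ccl4 had no row at P28. Of the 17, 12 rose, with a median of 0.46, and 8 rose with the midbrain covariate. The largest of the named rises were Spp1, osteopontin (2.02 ± 0.18), Lpl, lipoprotein lipase (1.66 ± 0.16), and Igf1 (1.05 ± 0.11). Spp1 is also a member of the list for cerebellar nuclei neurons, all of whose tested members rose, so its rise cannot be assigned to microglia. Axl, a receptor for dying cells, rose by 0.62 ± 0.065, Ctsb by 0.40 ± 0.035 and Ctsd by 0.32 ± 0.061, while Apoe was not called (0.46 ± 0.26) except without Rnaseh2b_Atm 2 (0.61). Csf1, the growth factor of microglia, fell by 0.30 ± 0.069 on the log2 scale and is named as the list's 1 fall. Of 11 complement genes 10 rose, with a median of 0.99. C4b, which tags debris for removal, was at 4.0, 3.16, 3.47, 3.72 and 3.52 log2 CPM in Atm and at 5.57, 5.84, 6.41, 5.58 and 5.74 in Rnaseh2b_Atm. The groups did not overlap, and C4b rose 4.77-fold (limma, adjusted p = 3.5e-09). C1qa (1.04 ± 0.13), C1qb (0.99 ± 0.12) and Serping1 (0.75 ± 0.086) rose as well.

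Genes of antigen presentation rose in 13 of 18 cases with a median of 0.73, 7 of the 18 without overlap of the libraries, beside 21.5% of all genes. Cd74, the chaperone of MHC class II (1.16 ± 0.29), B2m, the class I light chain (0.80 ± 0.19), the peptide transporter Tap2 (0.72 ± 0.17), Psmb10 (0.61 ± 0.11) and Tapbp (0.53 ± 0.087) rose. H2-D1, named as the list's 1 fall, fell by 0.28 ± 0.11 on the log2 scale, a call lost without Atm 1, 3 or 5 or Rnaseh2b_Atm 2 (−0.27 to −0.23). Under the midbrain covariate none of the 18 was called by limma. Of 12 chemokines, cytokines and NF-kB genes 8 rose, with a median of 0.84: the alarmin Il33 (1.67 ± 0.10), Relb (1.13 ± 0.11), the adhesion molecules Icam1 (1.11 ± 0.17) and Vcam1 (0.82 ± 0.11), and Il18 (0.58 ± 0.098) led. Markers of blood cells are given beside these lists: of 7 tested only Ptprc, which microglia also express, rose (0.94 ± 0.18), and the globin genes Hba-a1 (−0.42 ± 0.35) and Hba-a2 (−0.46 ± 0.35) were not called.

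Astrocytes. Genes of astrocytes and Bergmann glia, the radial astrocytes of the cerebellar cortex, rose in 13 of 20 cases and fell in 3, with a median of 0.37. The GABA transporter Slc6a11 rose by 2.70 ± 0.26, the potassium channel Kcnj10 by 1.44 ± 0.085, the connexin Gjb6 by 1.40 ± 0.076, glutamine synthetase Glul by 0.98 ± 0.083 and the glutamate transporter Slc1a2 by 0.74 ± 0.068. Slc1a3, the glutamate transporter that prevails in Bergmann glia, fell by 0.78 ± 0.11 on the log2 scale. The other falls, S100b (−0.53) and Hopx (−0.59), are named to complete the count. Slc6a11 and Slc1a2 are more typical of astrocytes outside the cerebellar cortex and stand beside the midbrain values.

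Of 17 markers of reactive astrocytes 10 rose and 1, Cd44 (−0.54), fell, with a median of 0.55. Gfap, the filament protein of reactive astrocytes, was at 7.11, 6.80, 7.30, 6.37 and 6.87 log2 CPM in Atm and at 8.85, 9.20, 8.71, 9.58 and 8.99 in Rnaseh2b_Atm. Every Rnaseh2b_Atm library exceeded every Atm library, and the rise was 2.18 ± 0.22 log2, or 4.52-fold (limma, adjusted p = 7.1e-08). S1pr3 (1.26 ± 0.10), Emp1 (1.26 ± 0.17), the copper carrier ceruloplasmin Cp (1.25 ± 0.071) and Aspg (1.20 ± 0.13) also rose. Vim (0.02 ± 0.13) and Stat3 (0.08 ± 0.043) were not called.

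Vessels, meninges, choroid plexus and muscle. Fibroblast and meningeal genes rose in 16 of 17 cases, with a median of 0.86 and a list level 0.64 to 0.88 above the Atm mean. Lum (1.73 ± 0.15), Dcn (1.36 ± 0.092), Col3a1 (1.33 ± 0.091) and Fn1 (0.62 ± 0.11), proteins of the extracellular matrix, and the growth factor Igf2 (1.05 ± 0.093) were among the rises, and Asgr1 fell by 2.06 ± 0.14 on the log2 scale. Of 23 endothelial and pericyte genes 10 rose, with a median of 0.14. Anpep (0.90 ± 0.10), Vtn (0.57 ± 0.057), Pdgfrb (0.42 ± 0.074) and Flt1 (0.34 ± 0.059) rose. Choroid plexus genes were very uneven in both groups. Ttr, transthyretin, was at 10.64, 3.55, 9.92, 3.44 and 9.46 log2 CPM in Atm and at 11.12, 8.05, 9.03, 11.47 and 10.11 in Rnaseh2b_Atm. Atm 2 and 4 held almost none and the other libraries overlapped, so Ttr was not called (2.55 ± 1.9), and 6 of 18 members of the list rose. Genes of motile cilia in ependymal cells, Foxj1 (1.68 ± 0.31), Tmem212 (2.32 ± 0.55), Ccdc153 (1.55 ± 0.37) and Dynlrb2 (1.30 ± 0.35), were among them. With the midbrain covariate limma called none of the 18. Otx2 belongs to this list and to that covariate, so this count cannot be read as one about midbrain genes alone.

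DNA replication and mitosis. Of 22 replication genes 13 fell and 3 rose, with a median of −0.35, and with the midbrain covariate 7 fell and limma called no rise. The helicase subunits Mcm5 (−1.03 ± 0.085), Mcm2 (−0.88 ± 0.14) and Mcm7 (−0.53 ± 0.055), their helicase partner Cdc45 (−0.57 ± 0.074) and the polymerase Pole (−0.91 ± 0.14) fell. Mcm6 (0.36), Tk1 (0.66) and Ccne1 (0.34) rose and are named to complete the count, Tk1 with a call lost without Atm 2 or 5 or Rnaseh2b_Atm 1, 3 or 5 (0.50 to 0.65). Mitotic genes had 4 rises and 2 falls among 15, near the shares of all genes on the higher side, and 2 rises with the midbrain covariate: Plk1 (0.65 ± 0.18), Tpx2 (0.39 ± 0.10) and Kif11 (0.49, not called at 0.42 without Atm 1 or Rnaseh2b_Atm 5) rose, and Ccnb2 (−0.57 ± 0.16) and Cenpe (−0.59 ± 0.20) fell.

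The fourth mitotic rise stood apart. Ube2c, a ubiquitin-conjugating enzyme of mitotic exit, was at −0.22, −0.42, −0.84, −0.60 and −0.68 log2 CPM in Atm and at 5.11, 4.99, 4.63, 5.24 and 4.44 in Rnaseh2b_Atm, a rise of 5.43 ± 0.24. Tnnc2, the troponin C of fast skeletal muscle, was at −1.78, −3.72, −3.07, −5.33 and −1.70 in Atm and at 5.08, 4.98, 4.61, 5.24 and 4.41 in Rnaseh2b_Atm. In every Rnaseh2b_Atm library the level of Tnnc2 was within 0.03 log2 CPM of that of Ube2c, and their reads ran from 862 to 3077 and from 878 to 3128. No annotated gene lies between them in the RefSeq table, and the nearest tested genes on either side did not rise. The files do not show whether the same reads were counted for both genes, so neither value is read as the expression of 1 gene. The other muscle genes were split, with Mylpf (0.96 ± 0.25) and Acta1 (0.55 ± 0.23, called without Atm 3, Rnaseh2b_Atm 3 or Rnaseh2b_Atm 5 but not without any other library, 0.44 to 0.57) higher and Cdh15, a cadherin that granule neurons also make (−2.19 ± 0.21), and Des (−1.23 ± 0.16) lower.

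Stress and signalling genes. Of 19 immediate early genes, which neurons induce within minutes of activity, 8 rose and 4 fell, with a median of 0.42, and with the midbrain covariate 2 rose and 2 fell. Egr3 (3.36 ± 0.53), Fosb (2.94 ± 0.45), Egr1 (1.22 ± 0.18), Maff (1.02 ± 0.19) and Arc (0.99 ± 0.17) rose. Ier2 (−0.99), Dusp1 (−0.83), Jun (−0.57) and Btg2 (−0.53) fell and are named to complete the count. These genes answer to handling before death, and the time from death to lysis is not given in the sources used here. Genes of the integrated stress response rose in 10 of 19 cases (6 with the midbrain covariate), among them Nupr1 (1.44 ± 0.13), the cysteine enzyme Cth (1.35 ± 0.17) and the amino acid transporter Slc7a5 (0.72 ± 0.064), while Vldlr (−0.71 ± 0.067) and Shmt2 (−0.38) fell. Antioxidant genes under Nrf2 rose in 9 of 15 cases with a median of 0.33. Srxn1, which repairs peroxiredoxins, rose by 1.19 ± 0.05, the haem-degrading enzyme Hmox1 by 1.31 ± 0.11, Gsta4 by 0.76 ± 0.071 and Sod2 by 0.37 ± 0.04.

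Genes whose mutation causes ataxia split near the shares of all genes, with 7 of 27 higher and 9 lower. The calcium channel Cacna1a (−0.69 ± 0.08), Fgf14, which sets sodium channel firing (−0.96 ± 0.12), and the DNA repair genes Xrcc1 (−0.59 ± 0.085) and Tdp1 (−0.44 ± 0.063) fell, and Spnb3, the Purkinje spectrin, rose (0.56 ± 0.054). Of 32 glutamate and GABA receptor genes 11 rose and 9 fell, near the shares of all genes. The granule cell subunits Grin2c and Gabrd fell as given above, and so did Gria4 (−1.15 ± 0.092), an AMPA receptor subunit, while Gabra3 (2.30 ± 0.15) and Gabrg1 (1.35 ± 0.11), GABA receptor subunits, rose. Mitochondrially encoded genes rose in 9 of 13 cases by a median of 0.29, mt-Nd6 by 0.59 ± 0.10, mt-Nd5 by 0.53 ± 0.077 and mt-Co1 by 0.53 ± 0.14.

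The effect of Rnaseh2b loss was compared with that on the control background by the interaction term of the fit, which tests the difference of the 2 changes. On the control background 861 genes (5.21%) were called, 471 higher (2.85%) and 390 lower (2.36%). The difference itself was called for 6234 genes (37.7%), 3093 higher (18.7%) and 3141 lower (19.0%), and for 6093 of them the change was larger in size on the Atm background. The 2 comparisons share no libraries. They do share the variance estimate of each gene, as all P28 libraries were fitted together, so their calls are not independent. Of the 861 genes 813 were called on the Atm background too, 809 in the same direction. The 813 are 94.4% of the 861, beside 61.0% of all genes called on the Atm background. They are 8.06% of the 10082, beside the 5.21% of all genes called on the control background.

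Th changed by 0.58 ± 0.23 log2 between Rnaseh2b and Control and by 7.70 between Rnaseh2b_Atm and Atm, a difference of 7.12 ± 0.33 (limma, adjusted p = 3.7e-11). Sla stood at 5.34 ± 0.09 log2 CPM in Control and 4.40 ± 0.15 in Rnaseh2b (SD, n = 5 each), so it fell there too, and the difference of the changes was −2.69 ± 0.12. Kit fell on both backgrounds, with a difference of −1.45 ± 0.074. Tgm5, a transglutaminase, was at 2.50 ± 0.08 in Control, 2.35 ± 0.22 in Rnaseh2b, 2.53 ± 0.04 in Atm and −2.41 ± 0.43 in Rnaseh2b_Atm (SD, n = 5 each), and only the last group was apart. Car4 (−2.87 ± 0.16) and Svep1 (−2.73 ± 0.13) had the other leading differences.

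By group, the difference was called for 20 of 24 granule neuron genes, all in the lower direction, with a median of −1.21 against a median change of −0.27 on the control background. It was called for 22 interferon-stimulated genes in the higher direction and 1 in the lower direction of 40 (median 1.0). So were 9 of 11 complement genes in the higher direction and 15 of 21 myelin genes in the lower direction. The myelin count includes Rnaseh2b_Atm 2 and 4, where the list was lowest, as given above. Of 18 homeostatic microglial genes 12 were called higher and 1 lower. Of 12 midbrain genes 7 were called higher and 2 lower (median 1.67), and 7 of 8 cerebellar nuclei genes higher (median 1.3). The median level of the midbrain list was 1.89 log2 CPM in Control, 2.76 in Rnaseh2b, 1.02 in Atm and 4.06 in Rnaseh2b_Atm. For Calb2 the difference was −2.28 ± 0.14, for C4b 2.02 ± 0.25, for Gfap 1.68 ± 0.31 and for Cdkn1a 1.37 ± 0.20. Pmaip1 rose on the control background too, by 1.12 ± 0.20, and its difference was 1.20 ± 0.29. The difference was called for 9 of 28 Purkinje genes, near the 37.7% of all genes. With the midbrain covariate the difference was called in the higher direction for 4 of the 40 interferon-stimulated, 7 complement and 6 homeostatic microglial genes, and in the lower direction for 15 granule neuron and 6 myelin genes. The mitochondrially encoded genes rose in 9 of 13 cases on the control background as well, and limma called a difference for none of the 13.

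**Figure D5:**
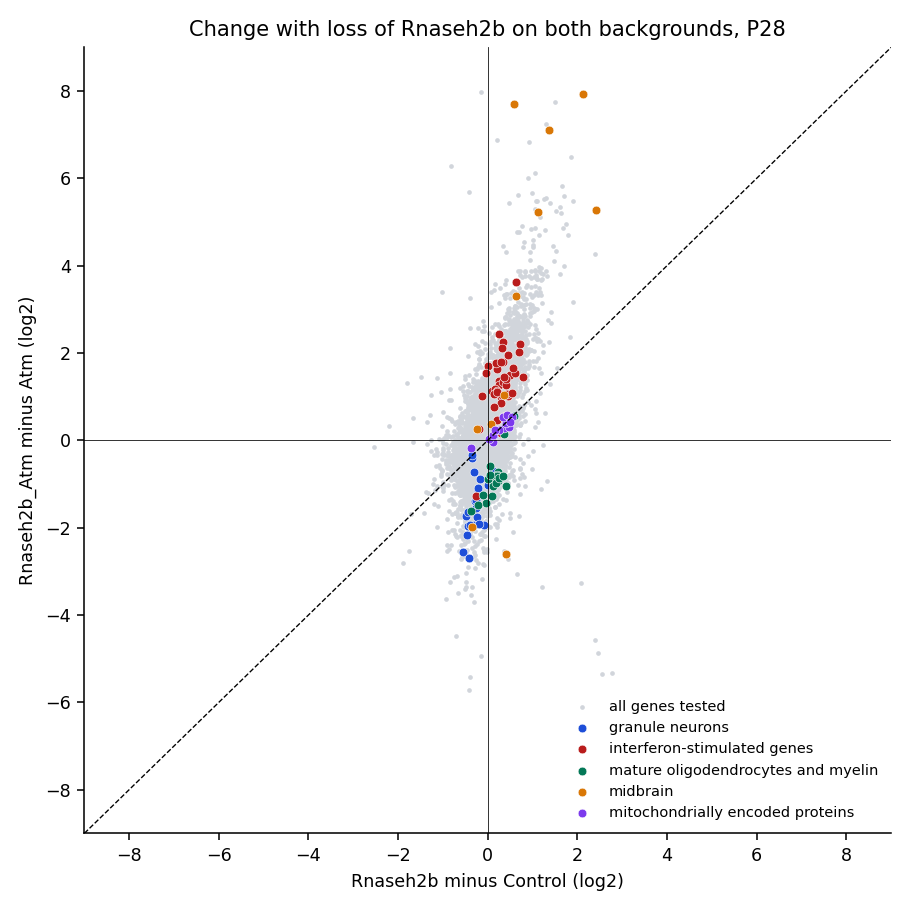
Each point is 1 gene: its log2 change between Rnaseh2b and Control on the horizontal axis and between Rnaseh2b_Atm and Atm on the vertical axis, with all 16530 tested genes in grey and 5 lists in colour. The dashed line marks equal changes. Granule neuron and myelin genes lie below 0 on the vertical axis with small horizontal values (except Vsnl1 among granule neuron genes and the uncalled Tspan2 and Enpp2 among myelin genes), interferon-stimulated genes other than Stat2 lie above it, and mitochondrially encoded genes lie near the line.

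The same genotypes were also sequenced at P5. Of 15421 genes tested 1154 rose (7.48%) and 311 fell (2.02%), 9.5% in all, from 4 Rnaseh2b_Atm and 3 Atm libraries. When the P5 libraries of these 2 groups were fitted alone, 307 rose and 36 fell. Leaving out Atm 2 gave 875 calls and leaving out Rnaseh2b_Atm 2 gave 874. Without Atm 1 there were 1861 calls, 1046 higher and 815 lower, so that the higher share of calls went from 78.8% to 56.2%. Of 14622 genes tested at both ages 993 were called at both, which is 11.0% of the P28 calls and 70.7% of the P5 calls tested at both. Of all genes tested at both ages 9.61% were called at P5 and 61.6% at P28, shares a little below both overlaps. Among the 993, 835 had the same sign, 683 higher and 152 lower. The P5 libraries hold total RNA and the P28 libraries poly-A RNA, so levels were not compared between the ages, and the change of effect with age was not tested.

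Rnaseh2b itself fell by 2.06 ± 0.21 on the log2 scale at P5. Pmaip1 rose by 3.14 ± 0.42, Eda2r by 2.77 ± 0.59, Ccng1, a p53 target, by 1.08 ± 0.092 and Cdkn1a by 0.66 ± 0.16 (limma). At P5, 6 of 14 apoptosis, 5 of 17 arrest and feedback and 5 of 19 metabolism and repair targets of p53 rose, beside 7.48% of all genes, and 2, 2 and 4 rose with both groups alone in the fit. Without Atm 1, 10 of the 19 metabolism and repair targets rose. Interferon-stimulated genes rose in 24 of 35 with 1 lower and a median of 0.83, Ifit3 by 1.30 ± 0.32, and Stat2 fell by 0.50 ± 0.13 on the log2 scale. Of the 35, 14 rose without Atm 3, 15 without Rnaseh2b_Atm 2 and 12 with both groups alone. Limma called none of the 24 granule neuron genes at P5, where their median was −0.10, but without Atm 1 5 fell with a median of −0.64, and without Atm 3 1 rose with a median of 0.41. With all libraries Calb2 was at −0.40 ± 0.34 log2. Midbrain genes had a median of −1.16 at P5 with 1 of 14 lower (0 with both groups alone), and medulla and pons genes a median of 0.79 with 0 of 14 called. Choroid plexus and ependymal genes rose in 13 of 18 cases (median 1.62), muscle genes in 7 of 10 (1.83) and meningeal genes in 9 of 18 (0.62). In the fit of both groups alone 2, 4 and 6 of these rose. The part of neighbouring tissue was not tested at P5 either. Genes of cholesterol synthesis fell in 8 of 22 cases at P5 (5 without Rnaseh2b_Atm 1), and Purkinje genes rose in 12 of 28 with a median of 0.75. With both groups alone these counts were 3 and 3.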

How the data were processed

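RNA of whole mouse cerebellum was sequenced. The authors deposited log2 CPM values per gene for each library, and FPKM values beside them. The mm9 build and the tools STAR, BWA, HTSeq, Trim Galore and limma are named, per the submitters' processing notes, with no roles; versions are not given in the sources used here. Per the labels' protocols, RNA was extracted with TRIzol and libraries came from a TruSeq stranded kit. The log2 values were tested as deposited. With a mean prior of 0.5 reads they gave back whole reads for 100% of values (within 0.01 read), which set the depth and served voom as an alternative. At P5, 3 rows that name no gene held 19.7 to 31.8% of the reads and were left out.

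Genes with at least 1 CPM in at least 5 P28 libraries (3 at P5) were fitted with limma 3.58.1 in R 4.3.3, with a variance trend, over all libraries of an age. P-values were adjusted by Benjamini-Hochberg over all genes, and an adjusted p below 0.05 was called. Named genes were the engineered genes, the 12 largest rises and falls without overlap and a mean of at least 1 log2 CPM, up to 5 called members of a list by smallest p, up to 3 of each p53, interferon and cell type list by highest mean, and up to 6 by smallest p for the difference of effects. Any other gene was named after its values were seen, whether or not this is said beside it. The members and lists were chosen with earlier results of these data known. Promoters were read from a RefSeq table (GRCm38.p6). Figures were drawn with matplotlib 3.10.9. Some genes that the rule picks are not reported here.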

Additional observations from a re-analysis of the deposited data

Results flagged for a closer look

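Within a group of 5 libraries, 41 of 570 sets of values (7.19%) had 1 library far from the other 4 by Dixon's test, where chance flags about 1 in 20. Rnaseh2b_Atm 2 was that library 13 times and Atm 4 11 times. Values are log2 CPM. Atm 1 was apart on the low side for Slc7a5 (5.70). Atm 1 was apart on the high side for Cxcl10 (−0.51) and Ifit3 (3.07). Atm 2 was apart on the low side for Ebp (5.19), S100b (8.10) and Tmem212 (−4.55). Atm 3 was apart on the low side for Eda2r (−2.38), Mbp (11.87) and Mdm2 (5.77). Atm 4 was apart on the low side for Barhl1 (3.18), Bbc3 (1.77), Boc (6.56), H2-D1 (6.62), Ier2 (2.45), Irf3 (5.0), Lrdd (1.44), Shmt2 (4.91), Tap2 (2.25), the mean of oligodendrocyte progenitors (4.51) and the mean of immediate early genes (3.10). Rnaseh2b_Atm 2 was apart on the low side for Apoe (9.25), Barhl1 (2.74), Ccne1 (3.11), Cspg4 (3.75), Nefl (8.07), Nefm (8.43), Shmt2 (4.61), Tcf7l2 (5.58), the mean of RNase H enzymes and partners (4.66) and the mean of cerebellar nuclei neurons (6.25). Rnaseh2b_Atm 2 was apart on the high side for Ptch1 (7.77), Slc1a3 (10.05) and Tbk1 (5.78). Rnaseh2b_Atm 3 was apart on the high side for Ifi27l1 (5.07), Lgals3bp (6.02) and the mean of homeostatic microglia (3.67). Rnaseh2b_Atm 4 was apart on the low side for Fdxr (4.48), Gad1 (9.42) and Pole (0.68). Rnaseh2b_Atm 4 was apart on the high side for Ccnd2 (5.29) and the mean of p53 targets of apoptosis (3.08).

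The change with Rnaseh2b loss differed between the Atm and control backgrounds by limma's interaction term for 6234 genes. Among those named, the difference was 7.12 for Th, −2.69 for Sla, −1.45 for Kit, −4.79 for Tgm5, −2.87 for Car4, −2.73 for Svep1, −2.28 for Calb2, 2.02 for C4b, 1.68 for Gfap, 1.37 for Cdkn1a and 1.20 for Pmaip1, in log2 units.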

How the results depend on the processing

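The 10082 calls of Rnaseh2b_Atm against Atm ran from 9512 to 10272 with 1 library left out, and were 6209 with the midbrain level as a covariate. The 6234 calls for the difference between backgrounds ran from 5705 to 6857, and were 3069 with that covariate. The 1465 P5 calls ran from 874 to 1861, and were 343 with the 2 groups alone in the fit, which has fewer samples. Replicate numbers did not pair the P28 libraries, as the correlation of same-numbered deviations ran from −0.21 to 0.318 and no library matched its own number best; with the replicate block 4994 genes rose and 5236 fell. Without the filter 5815 of 19432 genes rose and 5482 fell, and with voom on recovered reads 4946 and 5081. Of 248 named genes 247 kept their side of the threshold with voom, 247 with the block and 241 with both groups alone. Values that changed sign with the midbrain covariate were those of Cbln2 (−0.80), Cpne5 (−0.38), Lhx9 (−0.70), Tcf7l2 (−0.27, itself part of the covariate), Dynlrb2 (−0.05), Tk1 (−0.33), Ei24 (0.01), Mdm2 (0.03) and, not called in either fit, Apoe (−0.43), Gpr17 (−0.19), Ttr (−1.10) and Vim (−0.39); 64 further genes lost their call, among them Pax7, Gata3 and Pou4f1, which are part of the covariate. Also uncalled, Car8 ran from −0.01 to 0.15 with 1 library left out, and was −0.02 without Atm 4 and Rnaseh2b_Atm 2, and −0.06 without Rnaseh2b_Atm 2 and 4. With 1 library left out Gpr17 ran from −0.01 to 0.29 and Vim from −0.10 to 0.10, and Vim was −0.06 without Atm 4 and Rnaseh2b_Atm 2. The cause was not tested.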
